A study of Mus musculus with 26 samples.

Results

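T cells carry other receptors of the TNF receptor superfamily beside TNFR2, the receptor targeted in the experiment, and 9 of their genes are described here. They are Tnfrsf1a, Tnfrsf4, Tnfrsf8, Tnfrsf9, Tnfrsf14, Tnfrsf18, Tnfrsf25, Cd27 and Fas, taken by their gene symbols from the 24848 genes listed for each library, and all 9 were found and tested. Bulk RNA sequencing had been done on CD4 T cells of C57BL/6 mice with active EAE (experimental autoimmune encephalomyelitis, an autoimmune disease of the central nervous system, CNS, that is induced by immunisation), taken on day 14. All mice carried Foxp3Cre-ERT2, a Cre recombinase that tamoxifen activates in cells that transcribe Foxp3, and all received tamoxifen from day 7 to day 14. Mice with this allele alone were the controls (Ctrl), and mice with Foxp3Cre-ERT2 x Tnfrsf1bFlox/Flox (icKO) also had both copies of Tnfrsf1b, the TNFR2 gene, flanked by loxP sites. The Cre is thus driven in Foxp3-expressing cells, and the CD4+Foxp3- conventional T cells (Tconv) of icKO mice are cells that shared an animal with targeted CD4+Foxp3+ regulatory T cells (Treg). Cells came from the CNS or from the draining lymph nodes (dLN). That made 8 groups, with 4 libraries in each CNS Tconv group and 3 in each of the others, 26 libraries in all. The labels number the libraries of a group as mice.

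One library stood apart and was left out of the values below unless stated. The library labelled dLN Tconv icKO replicate 3 had a total of 7.776 M counts and 6005 genes above 0, against 12.42 to 18.53 M counts and 11089 to 14259 genes in the other 25. For 5 CNS Tconv libraries (Ctrl replicates 3 and 4, icKO replicates 2, 3 and 4), the deposited file carries the name of the other genotype. The groups follow the labels. Without these 5, CNS Tconv keeps Ctrl replicates 1 and 2 and only icKO replicate 1. Fits without them that use CNS Tconv icKO thus rest on 1 library in that group. Levels are in CPM, the count of a gene scaled to the size of its library. Summed markers of T cells were 5607 to 8844 CPM of the library total (8 genes). The sum was lower in Treg than in Tconv, without overlap, in the Ctrl CNS (5607 to 6261 against 7134 to 8844 CPM). The same held in the Ctrl dLN (5696 to 6261 against 6812 to 7266) and icKO dLN (5815 to 6640 against 7087 to 7369). In the icKO CNS it overlapped (6034 to 7185 against 6997 to 7695). Its part in the comparisons of Treg and Tconv was not tested. Foxp3 was 22.6 to 67.47 CPM in Treg and at most 1.502 CPM in Tconv libraries. CNS Treg libraries also held transcripts of other cells. The sum of 14 myeloid markers was 5743 to 8553 CPM there and 202 to 1377 CPM in every other group. The sum of 8 dendritic cell markers was 2554 to 3024 CPM in CNS Treg and 39.69 to 375.7 CPM elsewhere, and that of 6 microglia markers 1629 to 2237 CPM against 89.11 to 423.3 CPM. Neutrophil markers (6 genes) summed to 95.98 to 1028 CPM there and at most 9.068 CPM elsewhere. Those of CD8 T and NK cells (10 genes) summed to 562.2 to 1812 CPM in the CNS groups against 106.2 to 247.5 CPM in the dLN. Of these 10, 7 were higher in every CNS Treg than in any dLN Treg library and 3 overlapped. Within CNS Treg the sum was 562.2 to 769.1 CPM in Ctrl and 843.8 to 1812 CPM in icKO mice, without overlap. The part of this in the CNS Treg values was not tested. In Tconv the genes did not move together. Nkg7 had means of 741.1 (Ctrl) and 925.7 CPM (icKO) in the CNS against 109.6 and 77.13 CPM in the dLN. Ncr1 went the other way (1.021 and 0.4905 against 2.751 and 2.633 CPM), and Cd8b1 overlapped. Tnfrsf1b itself fell in neither Treg population by the test. It was 454, 711 and 664 CPM in CNS Treg Ctrl against 509.5, 357 and 352 CPM in icKO (log2 fold change −0.59 ± 0.17, edgeR adjusted p = 0.558), and 793, 736 and 857 CPM in dLN Treg Ctrl against 619.8, 619.6 and 618 CPM in icKO (−0.36 ± 0.16, adjusted p = 1). The counts cover the whole gene and were not resolved by exon.

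As background, receptors of this family are trimeric membrane proteins that respond to ligands of the TNF family carried by antigen-presenting cells, other T cells or stroma. One class, with Tnfrsf4 (OX40), Tnfrsf8 (CD30), Tnfrsf9 (4-1BB), Tnfrsf14 (HVEM), Tnfrsf18 (GITR) and Cd27, binds TRAF adaptors directly and passes a signal to the NF-kB factors that adds to the signal of the T cell receptor. The other class, with Tnfrsf1a (TNFR1), Fas (CD95) and Tnfrsf25 (DR3), has a cytoplasmic death domain that can recruit FADD or TRADD and, in some settings, start cell death through caspase-8. OX40, GITR and 4-1BB are well known on Treg, and CD27 is carried by naive T cells and lost by many effector cells.

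Of the 9 genes, 6 lie on chromosome 4, 2 on chromosome 6 and 1 on chromosome 19 (GENCODE positions on GRCm38, the build also called mm10). Tnfrsf4 (chr4:156013843-156016612) and Tnfrsf18 (chr4:156026164-156028895) are neighbours on the plus strand, 9551 bases apart with 0 protein-coding genes between them. Tnfrsf8 (chr4:145267137-145315164, minus strand) lies 20266 bases from Tnfrsf1b with 0 protein-coding genes between. Tnfrsf9 (chr4:150914562-150946102), Tnfrsf14 (chr4:154921933-154928563) and Tnfrsf25 (chr4:152115934-152120119) are on the same chromosome. Cd27 (chr6:125232622-125237010, minus strand) and Tnfrsf1a (chr6:125349362-125362484, plus strand) are 112351 bases apart, with Ltbr, Scnn1a and Tuba3a between them, and Fas is at chr19:34290666-34327772. Exons of Tnfrsf18 share 414 bases with exons of the antisense gene Gm16008, which the deposited tables do not list. The libraries kept no strand, so reads of the 2 genes cannot be told apart in the Tnfrsf18 values.

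The sequence just before the transcription start is shown for 5 genes that were called in at least 1 comparison below, to set the neighbours Tnfrsf4 and Tnfrsf18 beside Tnfrsf9, Tnfrsf8 and Cd27. Sequences are RefSeq's promoter windows on GRCm38.p6, 5′ to 3′ on the gene's strand, cut to the longest stretch outside annotated exons within the 250 bases before the start. Capitals mark matches, on either strand, to consensus motifs of NF-kB, AP-1 (TGANTCA), RUNX (TGTGGT), STAT (TTCNNNGAA) and forkhead factors (TGTTTAC). All 9 genes had an entry, with 11 starts in all, and both starts of Tnfrsf9 are shown.
Tnfrsf4, chr4:156013611-156013694, plus strand: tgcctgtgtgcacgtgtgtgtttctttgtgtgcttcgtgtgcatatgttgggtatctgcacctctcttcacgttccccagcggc
Tnfrsf18, chr4:156026072-156026163, plus strand: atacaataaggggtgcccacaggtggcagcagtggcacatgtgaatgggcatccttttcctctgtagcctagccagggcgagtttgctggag
Tnfrsf9 start 1, chr4:150919905-150920154, plus strand: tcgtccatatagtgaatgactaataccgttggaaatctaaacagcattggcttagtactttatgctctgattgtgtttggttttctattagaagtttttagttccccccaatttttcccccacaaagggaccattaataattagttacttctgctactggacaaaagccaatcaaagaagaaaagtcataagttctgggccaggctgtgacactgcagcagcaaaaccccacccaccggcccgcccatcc
Tnfrsf9 start 2, chr4:150927749-150927917, plus strand: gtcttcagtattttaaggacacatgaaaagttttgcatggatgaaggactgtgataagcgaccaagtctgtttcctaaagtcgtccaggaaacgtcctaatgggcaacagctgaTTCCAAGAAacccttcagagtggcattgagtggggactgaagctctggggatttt
Tnfrsf8, chr4:145315165-145315414, minus strand: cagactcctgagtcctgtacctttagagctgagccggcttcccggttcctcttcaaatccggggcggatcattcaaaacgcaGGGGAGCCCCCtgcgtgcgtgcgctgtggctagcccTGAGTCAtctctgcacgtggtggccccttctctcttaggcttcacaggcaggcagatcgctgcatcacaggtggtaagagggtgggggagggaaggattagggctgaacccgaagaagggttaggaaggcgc
Cd27, chr6:125237028-125237277, minus strand: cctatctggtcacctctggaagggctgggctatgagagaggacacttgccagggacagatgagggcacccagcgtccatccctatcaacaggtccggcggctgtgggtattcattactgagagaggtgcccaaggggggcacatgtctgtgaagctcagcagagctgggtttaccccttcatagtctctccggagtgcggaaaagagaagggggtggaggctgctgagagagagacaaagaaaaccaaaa

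The windows of Tnfrsf4, Cd27 and Tnfrsf9 start 1 held no match. The Tnfrsf8 stretch held overlapping matches to the NF-kB motif (GGGGAGCCCC and GGGAGCCCCC, bases 168 to 158 before the start) and an AP-1 match (TGAGTCA, bases 132 to 126). The Tnfrsf9 start 2 stretch held a STAT match (TTCCAAGAA, bases 136 to 128). Nearer to that start, in bases that are also annotated as exon and so are not printed, lay overlapping NF-kB matches (GGGGATTTCC and GGGATTTCCC, bases 43 to 33) and an AP-1 match (TGAGTCA, bases 15 to 9). Tnfrsf18 had 1 STAT match (TTCACAGAA, bases 99 to 91), also in bases annotated as exon and not printed. Of the genes not printed, Fas had an AP-1 and a STAT match, Tnfrsf1a had a STAT match, and Tnfrsf25 had a RUNX match at 1 start and NF-kB and STAT matches at the other. Over 32851 RefSeq promoters, 7.25% held the NF-kB motif in their 250 bases, 6.75% AP-1, 14% RUNX, 7.02% STAT and 3.17% forkhead. A match is a description of the letters, not evidence that a factor binds.

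Levels of members, Tnfrsf1b and list genes are given as TMM-scaled CPM, which compares 1 gene across libraries. Cell type markers, singly and summed, are in CPM of the library total, without TMM scaling. Between genes, levels were compared with the authors' TPM, which also divides by transcript length. By TPM, Tnfrsf18 was the highest of the 9 in all 4 CNS groups (2042 ± 297.8, SD, n = 3, in CNS Treg Ctrl and 530.4 ± 79.2, n = 4, in CNS Tconv Ctrl). Tnfrsf4 was highest in dLN Treg (1323 ± 108, n = 3, in Ctrl), and Cd27 in dLN Tconv (255 ± 15.04, n = 3, in Ctrl). Tnfrsf8 and Tnfrsf14 were the lowest members in every group, from 0.838 ± 0.356 TPM (Tnfrsf8, n = 4, CNS Tconv Ctrl) to 19.1 ± 2.46 TPM (Tnfrsf8, n = 3, dLN Treg Ctrl). The receptors with a death domain, Tnfrsf1a, Fas and Tnfrsf25, were at 23.0 ± 3.36 TPM (Tnfrsf1a, n = 3, dLN Treg icKO) to 98.6 ± 8.79 TPM (Tnfrsf25, n = 4, CNS Tconv icKO).

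Ordered by mean CPM, the 8 groups fell into 4 steps for Tnfrsf18, with CNS Treg above dLN Treg, then CNS Tconv, then dLN Tconv. Libraries of neighbouring steps did not overlap, and the genotypes overlapped within each step. For Tnfrsf4 the 4 Treg groups overlapped one another and lay above both CNS Tconv groups, which in turn lay above both dLN Tconv groups. For Tnfrsf9 the order was CNS Treg, dLN Treg, CNS Tconv icKO, CNS Tconv Ctrl and dLN Tconv. There dLN Treg overlapped with CNS Tconv icKO, and CNS Treg icKO, the most spread group, reached below the dLN Treg libraries. CNS Tconv Ctrl overlapped with dLN Tconv, as its replicates 2 and 3 (23.6 and 29.2 CPM) lay below all dLN Tconv libraries (38.6 to 50.9 CPM). Both dLN Treg groups were lowest for Tnfrsf1a and highest for Tnfrsf8, without overlap with the next group in either case. CNS Tconv icKO was lowest for Cd27, without overlap with CNS Tconv Ctrl. For Fas and Tnfrsf14 every neighbouring pair of groups overlapped. Groups further apart in the order could still separate, as CNS and dLN Tconv Ctrl did for Tnfrsf14.

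**Figure D1:**
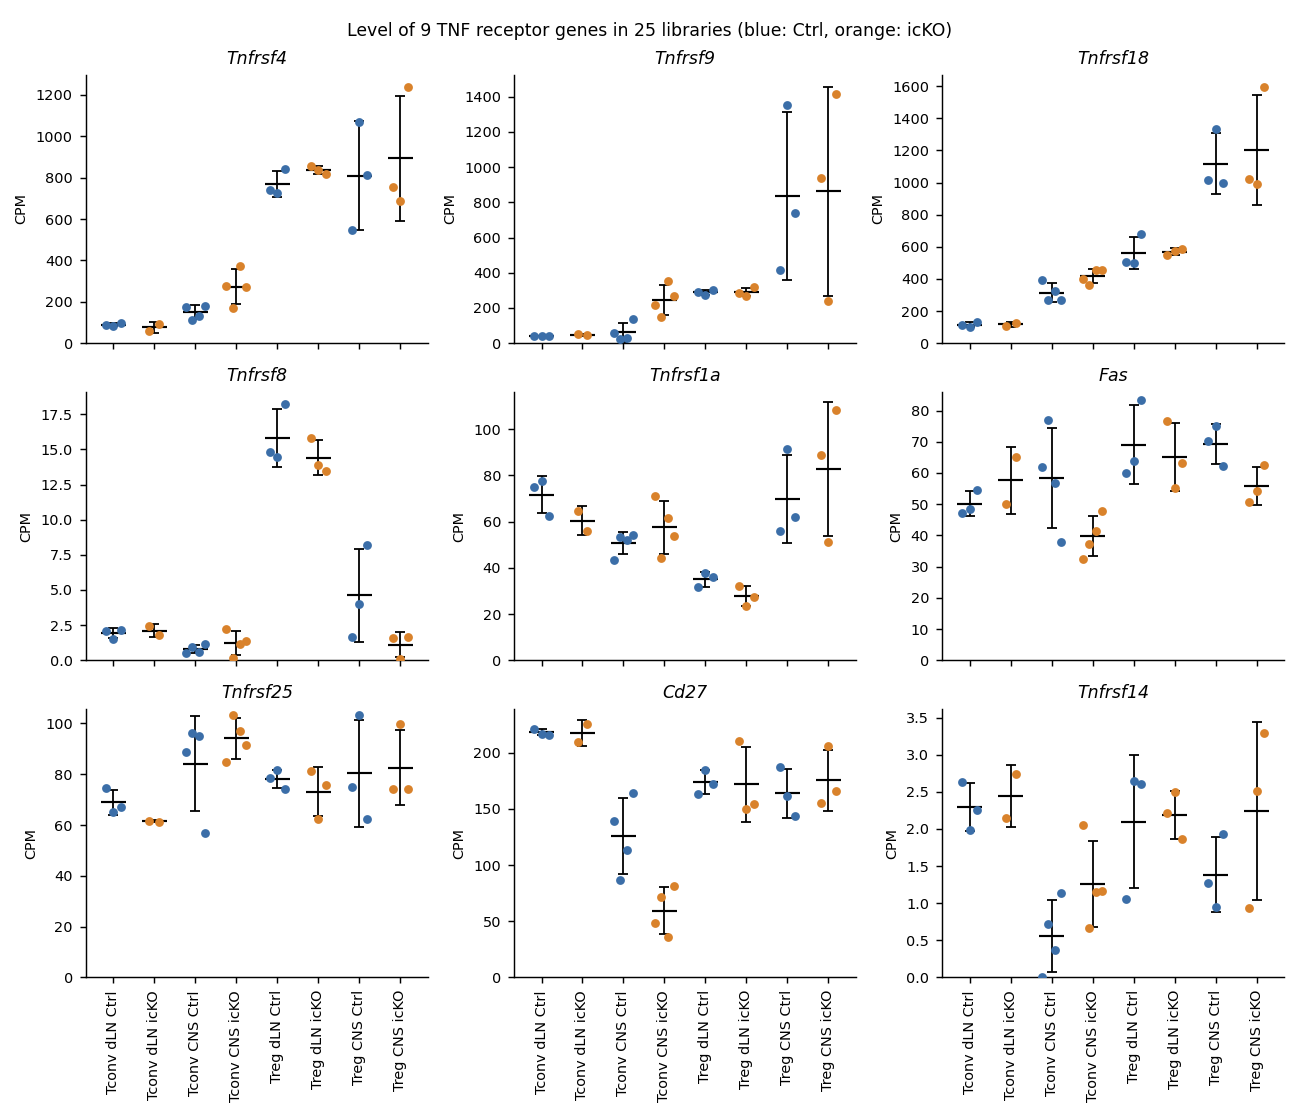
CPM (linear axes from 0) of the 9 receptor genes in the 25 libraries, by group. Points are libraries, blue for Ctrl and orange for icKO, and black lines are the mean ± SD of a group. Tnfrsf4 and Tnfrsf18 were higher in every Treg library than in any Tconv library, and Tnfrsf8 was highest in the 6 dLN Treg libraries.

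The first set of comparisons asked which receptors differ between Treg and Tconv cells. Tnfrsf4, Tnfrsf9 and Tnfrsf18 were higher in Treg cells in both tissues and both genotypes, and Tnfrsf8 in 3 of these 4 settings. Tnfrsf1a was lower in Treg than in Tconv cells of the dLN, and was not called in the CNS. Cd27 was higher in Treg only by the test in the CNS of icKO mice. A gene was called when its edgeR quasi-likelihood p, adjusted by Benjamini-Hochberg over all 13500 genes tested, was under 0.05. In the CNS of Ctrl mice 4 of the 9 passed (all higher in Treg), where 17.9% of all genes did, and in the dLN of Ctrl mice 5 passed (4 higher, 1 lower) against 11.5%. In icKO mice 4 passed in the CNS (all higher) against 12.6%, and 5 in the dLN (4 higher, 1 lower) against 9.91%. With all 26 libraries the counts were 3 of 9 (6.08% of 13054 genes), 3 (1.8%), 3 (3.42%) and 3 (3.95%), in the same order. The median log2 difference of the 9 members was 1.30 in the Ctrl CNS and 0.46 in the Ctrl dLN, against 0.02 and 0 for all genes. A change in bulk RNA can come from fewer cells of a type or from less RNA per cell, and these cannot be told apart here.

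Tnfrsf4 encodes OX40, a costimulatory receptor for OX40L that activated T cells and Treg carry. It was 740.1, 724 and 843 CPM in dLN Treg Ctrl against 89.0, 83.4 and 96.2 CPM in dLN Tconv Ctrl. In the CNS of Ctrl mice it was 545, 1071 and 813 CPM in Treg against 175, 112, 131 and 179 CPM in Tconv. Every Treg library lay above every Tconv library in both tissues. The log2 fold change was 3.10 ± 0.29 in the dLN (8.58-fold, edgeR adjusted p = 2.64e-07) and 2.44 ± 0.25 in the CNS (5.43-fold, adjusted p = 9.62e-07). In icKO mice the values were 3.46 ± 0.35 (adjusted p = 1.67e-06) and 1.71 ± 0.25 (adjusted p = 6.21e-05). The icKO dLN value was 2.38 with all 26 libraries, since the library left out held 389 CPM of its total against 60.1 and 95.3 CPM in the other dLN Tconv icKO libraries. Tnfrsf4 passed under every alternative in all 4 comparisons.

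Tnfrsf18 encodes GITR, a receptor that Treg carry at rest and other T cells gain on activation. In the dLN of Ctrl mice it was 504, 502 and 678 CPM in Treg against 115, 99.2 and 131 CPM in Tconv cells. In the CNS it was 1019, 1334 and 998 CPM in Treg against 396, 269, 324 and 270.2 CPM in Tconv cells. The groups did not overlap in either tissue, and the difference was 2.29 ± 0.19 (4.88-fold, adjusted p = 9.71e-08) in the dLN and 1.83 ± 0.17 (3.55-fold, adjusted p = 3.61e-07) in the CNS on the log2 scale. The icKO values were 2.29 ± 0.23 (adjusted p = 1.49e-06; 1.46 with 26 libraries) and 1.52 ± 0.17 (adjusted p = 3.02e-06).

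Tnfrsf9 encodes 4-1BB, a costimulatory receptor that appears on T cells after antigen contact. Its dLN levels were close together, at 293, 271 and 301 CPM in Treg Ctrl and 42.3, 42.1 and 38.6 CPM in Tconv Ctrl (2.81 ± 0.58 on the log2 scale, adjusted p = 0.00242). Its CNS levels were spread widely, at 415, 1354 and 738 CPM in Treg Ctrl and 58.6, 23.6, 29.2 and 140.0 CPM in Tconv Ctrl (3.74 ± 0.54, 13.3-fold, adjusted p = 5.04e-05). No Treg library fell into the Tconv range. In icKO mice the CNS groups overlapped, with 936, 237 and 1413 CPM in Treg against 216, 149, 352 and 268 CPM in Tconv. That difference was 1.81 ± 0.51 (adjusted p = 0.0202). The call was lost without CNS Treg icKO replicate 3 (1.24, adjusted p = 0.151), without CNS Tconv icKO replicate 1 or 2 (0.0577 and 0.0641), without the 5 CNS Tconv libraries whose file names disagree (0.153) and with 26 libraries (0.0688). In the icKO dLN, Tnfrsf9 differed by 2.62 ± 0.68 (adjusted p = 0.0149), a call lost without either dLN Tconv icKO library (adjusted p up to 0.133) and with 26 libraries (0.0558). The SD of log2 CPM of Tnfrsf9 was 0.852 and 1.35 in CNS Treg Ctrl and icKO against 0.0784 and 0.117 in dLN Treg.

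Tnfrsf8 encodes CD30, which binds CD153, the product of Tnfsf8, and was low outside dLN Treg, at 8.19 CPM or less. It was 14.8, 14.5 and 18.2 CPM in dLN Treg Ctrl against 2.06, 1.51 and 2.18 CPM in dLN Tconv Ctrl (3.04 ± 0.74, 8.23-fold, adjusted p = 0.00862). That call was lost without dLN Tconv Ctrl replicate 2 (adjusted p = 0.0529) and with 26 libraries (0.154). In the CNS of Ctrl mice it was 1.65, 4.03 and 8.19 CPM in Treg and 0.516, 0.948, 0.583 and 1.14 CPM in Tconv (2.53 ± 0.67, adjusted p = 0.0114). Without CNS Treg Ctrl replicate 3, the highest of these, the CNS call was lost (1.83, adjusted p = 0.0837), as it was with 26 libraries (0.105). In icKO mice Tnfrsf8 passed in the dLN (2.77 ± 0.86, adjusted p = 0.0428), where leaving out any 1 of the 5 libraries ended the call (adjusted p up to 0.258), as did the fit of 26 libraries (0.0659). In the icKO CNS the difference was −0.15 ± 0.68, with 1.61, 0.0696 and 1.69 CPM in Treg against 2.23, 0.199, 1.15 and 1.37 CPM in Tconv.

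**Figure D2:**
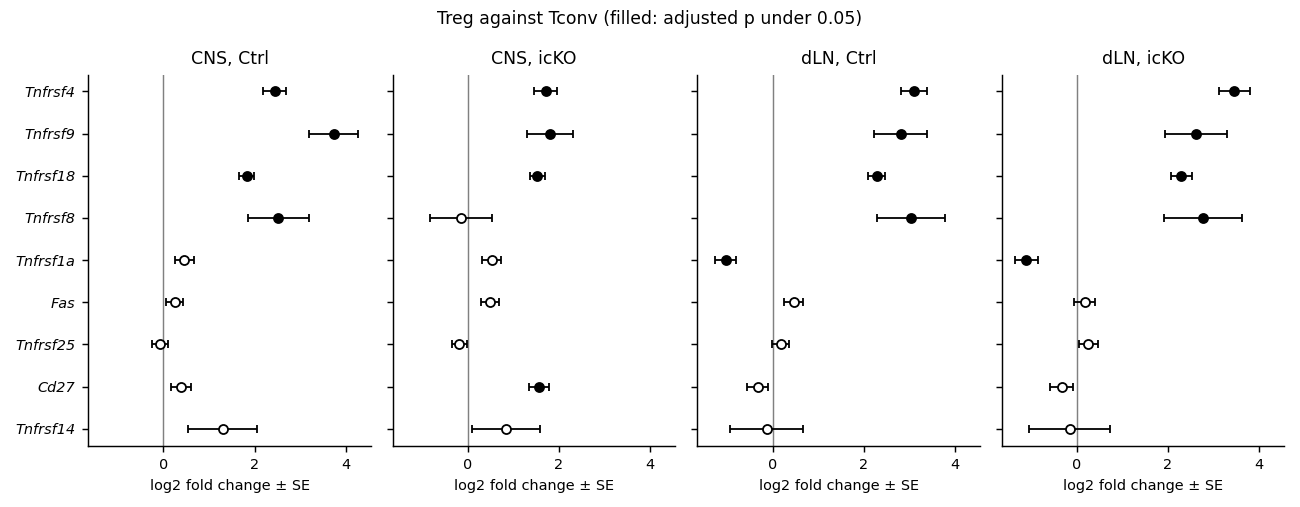
Log2 fold change of Treg against Tconv cells (points) ± SE (bars) for the 9 receptor genes in each tissue and genotype. Filled points passed an edgeR adjusted p of 0.05. Tnfrsf4, Tnfrsf9 and Tnfrsf18 lay to the right of 0 in all 4 panels, and Tnfrsf1a was at −1.03 and −1.12 in the dLN.

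Of the receptors with a death domain, only Tnfrsf1a passed in these 4 comparisons. Tnfrsf1a, the receptor for soluble TNF and lymphotoxin that most cell types carry, was 31.5, 37.6 and 36.1 CPM in dLN Treg Ctrl against 75.1, 77.4 and 62.4 CPM in dLN Tconv Ctrl. All Treg libraries were below all Tconv libraries (−1.03 ± 0.23, adjusted p = 0.00437, and 0.0739 with 26 libraries). In icKO mice the dLN difference was −1.12 ± 0.25 (adjusted p = 0.00529, and 0.0968 without dLN Tconv icKO replicate 1). In the CNS the values were 0.46 ± 0.21 (adjusted p = 0.136) in Ctrl and 0.52 ± 0.21 (adjusted p = 0.112) in icKO mice, though the Ctrl groups did not overlap. Fas, the receptor for Fas ligand, ranged from 32.6 to 83.5 CPM over all 25 libraries, with log2 differences between Treg and Tconv of 0.17 to 0.49 that did not pass. Tnfrsf25, the receptor for TL1A, ranged from 56.7 to 103 CPM, and its differences of −0.19 to 0.25 did not pass.

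Cd27, the receptor for CD70, differed between Treg and Tconv by the test in the icKO CNS only. There it was 155, 206 and 166 CPM in Treg against 48.5, 71.7, 36.4 and 81.8 CPM in Tconv (1.56 ± 0.22, 2.95-fold, adjusted p = 4.41e-05), and the groups did not overlap. In the Ctrl CNS it was 187, 161 and 143 CPM against 139, 86.6, 113 and 165 CPM (0.38 ± 0.22, adjusted p = 0.239). The difference between these 2 values did not pass by edgeR (1.18 ± 0.31, adjusted p = 0.0862) and did by DESeq2 (adjusted p = 0.0137). Tnfrsf14 encodes HVEM, which binds LIGHT, BTLA and CD160, and it stayed at or under 3.29 CPM in all 25 libraries. It was at 0 counts in CNS Tconv Ctrl replicate 1, which allows up to 0.21 CPM, a limit for counting error only. None of its 4 differences between Treg and Tconv passed.

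The next comparisons set CNS cells against dLN cells of the same type and genotype. Tnfrsf18 was higher in the CNS in both cell types and both genotypes. Tnfrsf1a was higher in CNS than in dLN Treg, and was not called in Tconv. Cd27 was lower in CNS than in dLN Tconv, and was not called in Treg. In Treg, 3 of the 9 members passed in Ctrl mice (all higher in the CNS), where 21.8% of all genes did, and 4 in icKO mice (3 higher, 1 lower) against 22.5%. In Tconv, 2 passed in Ctrl mice (1 higher, 1 lower) against 8.9%, and 5 in icKO mice (4 higher, 1 lower) against 14.1%. With 26 libraries the counts were 1 (5.75%), 2 (5.15%), 1 (1.1%) and 1 (9.24%), in the same order. In Treg the share of members is read against a large share of all genes that differed between the tissues. The sum of the 8 Treg markers, all above 0 in each of the 25 libraries, also moved with tissue. It was 1937 to 2598 CPM in CNS Treg and 2815 to 3197 CPM in dLN Treg, without overlap. In Tconv it was 665.9 to 1163 CPM in the CNS against 383 to 474.1 CPM in the dLN, without overlap. Of the 8, 3 were lower in every CNS Treg than in any dLN Treg library and 5 overlapped. In Tconv, Capg (299.6 to 651.4 against 102.8 to 149.2 CPM), Il2ra and Nrp1 were higher in the CNS without overlap. Izumo1r was lower (16.92 to 67.21 against 118.3 to 168.3 CPM), and Foxp3, Ikzf2, Ctla4 and Gpr83 overlapped. The part of these markers in the tissue results of Tnfrsf4, Tnfrsf8, Tnfrsf9 and Tnfrsf18 was not tested. Each comparison shares its groups with a comparison of Treg and Tconv cells above.

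Tnfrsf18 in Treg rose from 504, 502 and 678 CPM in the dLN to 1019, 1334 and 998 CPM in the CNS of Ctrl mice, with no overlap (0.99 ± 0.19, adjusted p = 0.000751, and 0.0854 with 26 libraries). In icKO Treg it rose from 547, 575 and 587 CPM to 1020.2, 990.5 and 1598 CPM (1.08 ± 0.19, adjusted p = 0.000309, and 0.0722 with 26 libraries). In Tconv it rose from 115, 99.2 and 131 CPM to 269 to 396 CPM in Ctrl mice (1.45 ± 0.18, adjusted p = 3.23e-05), a call kept under all 17 alternatives. In icKO Tconv it rose from 106 and 127 CPM to 398, 365, 456.2 and 456.3 CPM (1.85 ± 0.21, adjusted p = 5.16e-06). With the 26th library, which held 459.6 CPM of its total, the icKO Tconv value was 0.96 (adjusted p = 0.0559).

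Tnfrsf1a rose in Treg from 31.5, 37.6 and 36.1 CPM in the dLN to 55.8, 91.4 and 62.0 CPM in the CNS of Ctrl mice. The groups did not overlap (0.99 ± 0.23, 1.99-fold, adjusted p = 0.00388). In icKO Treg it rose from 32.3, 23.4 and 27.6 CPM to 88.7, 51.2 and 108 CPM (1.57 ± 0.23, 2.98-fold, adjusted p = 6.93e-05), again with no overlap. Both calls were kept under all 16 alternatives. In Tconv it was 75.1, 77.4 and 62.4 CPM in the dLN and 43.4, 53.2, 52.1 and 54.0 CPM in the CNS of Ctrl mice (−0.50 ± 0.21, adjusted p = 0.141), and the icKO value was −0.07 ± 0.24. The change between tissues differed between Treg and Tconv by an interaction term of 1.49 ± 0.31 in Ctrl (adjusted p = 0.00822, and 0.127 with 26 libraries) and 1.64 ± 0.33 in icKO mice (adjusted p = 0.00319). The icKO term had an adjusted p of 0.0991 without the 5 CNS Tconv libraries whose file names disagree. The CNS Treg libraries are also those with the myeloid, microglia and dendritic cell transcripts given above, with all 14 myeloid and 6 microglia markers above 0 in all 6 of them. Of the 14 myeloid markers, 13 were higher in every CNS Treg than in any dLN Treg library, such as Csf1r (804.3 to 1253 against 12.4 to 58.8 CPM) and C1qa (340.9 to 501.5 against 5.393 to 35.02 CPM), and Lyz2 overlapped (413.2 to 1467 against 62.55 to 607.8 CPM). Their part in the CNS Treg values of Tnfrsf1a, Tnfrsf9 and Tnfrsf18 was not tested.

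**Figure D3:**
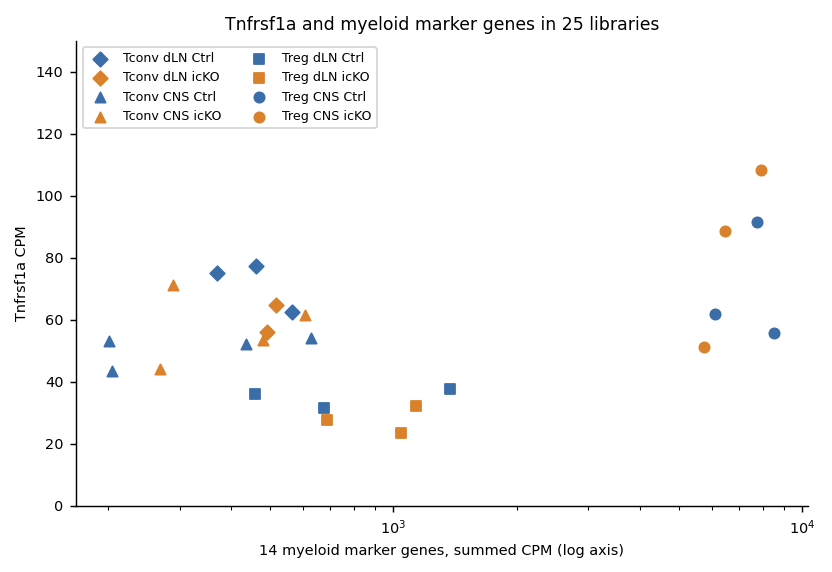
Tnfrsf1a in TMM-scaled CPM (linear axis) against the sum of 14 myeloid marker genes in CPM of the library total (log axis) in 25 libraries. Circles are CNS Treg, squares dLN Treg, triangles CNS Tconv and diamonds dLN Tconv, blue for Ctrl and orange for icKO. The 6 CNS Treg libraries stand at 5743 to 8553 CPM of the markers, and dLN Treg have the lowest Tnfrsf1a.

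Tnfrsf9 was called higher in CNS Treg of both genotypes, from 293, 271 and 301 CPM to 415, 1354 and 738 CPM in Ctrl (1.54 ± 0.55, adjusted p = 0.0493) and from 286, 270.5 and 318 CPM to 936, 237 and 1413 CPM in icKO mice (1.56 ± 0.55, adjusted p = 0.0449). The icKO groups overlapped, since CNS Treg icKO replicate 2 was below all 3 dLN libraries. Both calls were lost with 26 libraries (adjusted p = 0.156 and 0.151) and without any 1 of 5 of the 6 libraries compared. In Tconv it passed in icKO mice (2.37 ± 0.65, adjusted p = 0.0164, and 0.0535 with 26 libraries), from 50.9 and 44.1 CPM in the dLN to 149 to 352 CPM in the CNS. That call was lost without either dLN library and without the 5 libraries whose file names disagree (adjusted p up to 0.145). The Ctrl Tconv difference was 0.61 ± 0.52. Tnfrsf4 was near its dLN level in CNS Treg of both genotypes (0.08 ± 0.26 and 0.09 ± 0.26). In Tconv it rose in icKO mice from 58.5 and 94.1 CPM to 278, 169, 375 and 273 CPM (1.84 ± 0.31, adjusted p = 0.000287), a value that was 0.71 (adjusted p = 0.318) with 26 libraries. The Ctrl Tconv value of Tnfrsf4 was 0.73 ± 0.25 (adjusted p = 0.0733), and the 2 groups did not overlap. The tissue change of Tnfrsf4 differed between Treg and Tconv of icKO mice (−1.75 ± 0.40, adjusted p = 0.00849). That interaction was −0.66 (adjusted p = 0.711) with 26 libraries and had an adjusted p of 0.0828 without dLN Tconv icKO replicate 1.

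Tnfrsf8 went the other way in Treg. In icKO mice it fell from 15.8, 13.9 and 13.5 CPM in the dLN to 1.61, 0.0696 and 1.69 CPM in the CNS (−3.68 ± 0.77, adjusted p = 0.00162), a call kept under all 16 alternatives. In Ctrl mice it was 14.8, 14.5 and 18.2 CPM against 1.65, 4.03 and 8.19 CPM, with no overlap, and did not pass (−1.77 ± 0.70, adjusted p = 0.0736). It did pass there without CNS Treg Ctrl replicate 3 (−2.47, adjusted p = 0.031), by DESeq2 (adjusted p = 0.0371) and by limma voom (0.00348). The difference between the genotypes' tissue changes was −1.91 ± 0.98 and did not pass (adjusted p = 1). Tconv values of Tnfrsf8 also lay below 0 and did not pass, at −1.25 ± 0.67 in Ctrl (no overlap) and −0.76 ± 0.74 in icKO mice. Its tissue change did not differ between Treg and Tconv by edgeR (−0.52 ± 0.98 in Ctrl, adjusted p = 0.867, and −2.92 ± 1.08 in icKO mice, adjusted p = 0.0997). The icKO term passed by DESeq2 (adjusted p = 0.039).

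Cd27 fell in CNS Tconv of both genotypes. In Ctrl mice it went from 221, 217 and 216 CPM in the dLN to 139, 86.6, 113 and 165 CPM (−0.79 ± 0.22, adjusted p = 0.0255), a call lost with 26 libraries (adjusted p = 0.244) and without any 1 of 5 of the 7 libraries. In icKO mice it went from 209.6 and 226 CPM to 48.5, 71.7, 36.4 and 81.8 CPM (−1.87 ± 0.24, 3.65-fold, adjusted p = 1.52e-05), a call kept under all 16 alternatives. Treg held 143 to 211 CPM in either tissue (−0.08 ± 0.23 in Ctrl and 0.03 ± 0.23 in icKO mice). The interaction of tissue and cell type was 1.90 ± 0.34 in icKO mice (adjusted p = 0.00115), kept under all 22 alternatives, and 0.71 ± 0.32 in Ctrl mice (adjusted p = 0.238). Over the 9 members, 1 passed this interaction in Ctrl mice (3.67% of all genes) and 3 in icKO mice (8.28%), against 0 (0.0919%) and 2 (2.04%) with 26 libraries. The 7 naive and central T cell markers (Ccr7, Lef1, Tcf7, Klf2, S1pr1, Il7r and Satb1) summed to 6630 to 7410 CPM in dLN Tconv. The sum was 5470 to 6179 CPM in CNS Tconv Ctrl and 2777 to 3862 CPM in CNS Tconv icKO. Between these CNS groups Ccr7, Lef1 and Tcf7 did not overlap, while Klf2, S1pr1, Il7r and Satb1 did. Klf2 was higher in CNS than in dLN Tconv of Ctrl mice (mean 864.8 against 510.9 CPM). The part of these markers in the Cd27 result was not tested. Tnfrsf25 passed in icKO Tconv alone (0.61 ± 0.20, adjusted p = 0.0459), from 61.7 and 61.2 CPM to 84.7, 103, 97.0 and 91.3 CPM. Leaving out 5 of the 6 libraries in turn, or the 5 whose file names disagree, ended that call. So did no filter on low counts and the fit of 26 libraries (1.18, adjusted p = 0.357). Fas and Tnfrsf14 had no tissue change called by edgeR. In Ctrl Tconv, Tnfrsf14 was lower in the CNS without overlap (−2.02 ± 0.76, edgeR adjusted p = 0.1, and 0.489 with 26 libraries). It passed there by DESeq2 (adjusted p = 0.0216), by limma voom (0.0375) and without CNS Tconv Ctrl replicate 4 (edgeR, 0.0344). In icKO Tconv its value was −0.95 ± 0.83, and in Treg −0.59 ± 0.81 (Ctrl) and 0.04 ± 0.80 (icKO).

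**Figure D4:**
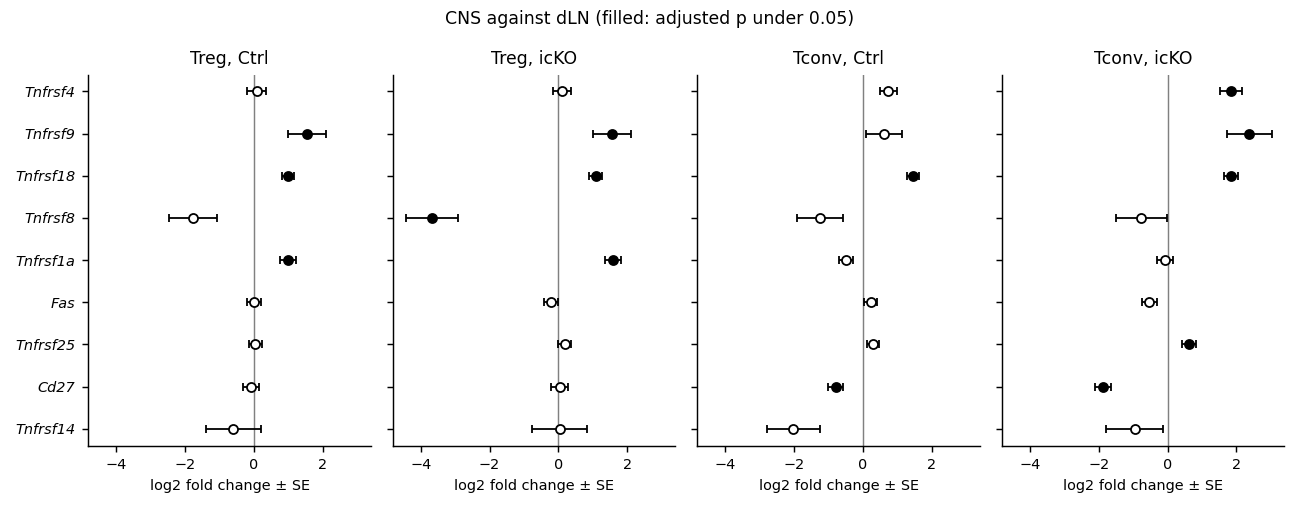
Log2 fold change of CNS against dLN cells (points) ± SE (bars) for the 9 receptor genes in each cell type and genotype. Filled points passed an edgeR adjusted p of 0.05. Tnfrsf18 is right of 0 in all 4 panels, Tnfrsf1a at 0.99 and 1.57 in Treg, and Cd27 at −0.79 and −1.87 in Tconv.

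The genotype comparisons asked what differs in icKO against Ctrl cells. In CNS Tconv, which are not the cells that express the Cre, Tnfrsf9 and Tnfrsf4 were higher and Cd27 lower in icKO mice. No member was called in Treg of either tissue or in dLN Tconv. In CNS Tconv 3 of the 9 passed (2 higher, 1 lower), where 3.1% of all genes did. With 26 libraries 0 of 9 passed, where 0.0919% of genes did.

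Tnfrsf9 was 58.6, 23.6, 29.2 and 140.0 CPM in CNS Tconv Ctrl and 216, 149, 352 and 268 CPM in icKO. The groups did not overlap, and the gap between Ctrl replicate 4 and icKO replicate 2 was narrow (1.97 ± 0.49, 3.93-fold, adjusted p = 0.0311). Tnfrsf4 was 175, 112, 131 and 179 CPM in Ctrl and 278, 169, 375 and 273 CPM in icKO, and icKO replicate 2 lay within the Ctrl range (0.88 ± 0.23, 1.84-fold, adjusted p = 0.0422). Cd27 was 139, 86.6, 113 and 165 CPM in Ctrl and 48.5, 71.7, 36.4 and 81.8 CPM in icKO, with no overlap (−1.08 ± 0.21, 2.11-fold lower, adjusted p = 0.0068).

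These 3 calls differed in how far they held. Those of Tnfrsf9 and Tnfrsf4 were lost without any 1 of 6 of the 8 libraries (adjusted p up to 0.0938 and 0.157) and with 26 libraries (0.209 and 0.657). They were also lost without the 5 libraries whose file names disagree. Cd27 kept its call without each of the 8 libraries. It lost the call with 26 libraries (adjusted p = 0.162) and with a fit of the compared groups alone (0.0929). Without the 5 libraries Cd27 was at −1.21, a value that rests on 1 icKO library (replicate 1) and cannot settle the labels. The sum of naive and central T cell markers given above also separated the 2 groups without overlap, and its part in these results was not tested. Fas was 62.0, 76.8, 56.9 and 37.8 CPM in Ctrl and 32.6, 37.3, 41.5 and 47.8 CPM in icKO (−0.55 ± 0.18, adjusted p = 0.0963). Without Ctrl replicate 4 Fas was called (−0.71, adjusted p = 0.0151). Tnfrsf18 did not pass (0.41 ± 0.16, adjusted p = 0.172), nor did Tnfrsf1a (0.18 ± 0.20), Tnfrsf25 (0.16 ± 0.16), Tnfrsf8 (0.63 ± 0.64) and Tnfrsf14 (1.16 ± 0.72). Tnfrsf1b, which is floxed in these cells while the Cre is driven in Foxp3+ cells, was 229, 176, 199 and 229 CPM in Ctrl and 358, 269, 390 and 356 CPM in icKO (0.72 ± 0.14, adjusted p = 0.0091). That call was lost with 26 libraries (adjusted p = 1), with the compared groups alone and without the 5 libraries whose file names disagree.

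**Figure D5:**
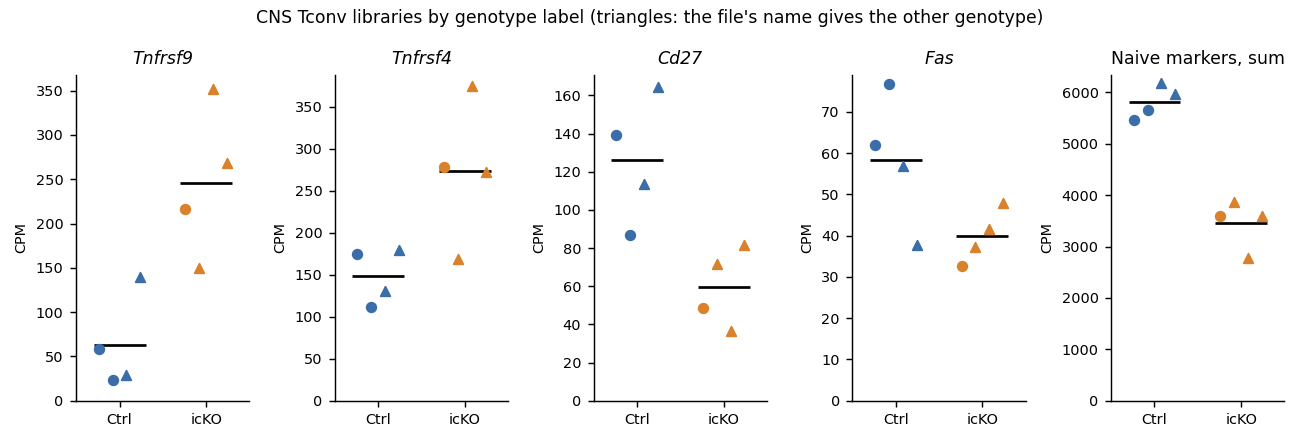
CPM (linear axes from 0) of 4 receptor genes and of 7 summed naive and central T cell markers in the CNS Tconv libraries by genotype label. The receptor genes are in TMM-scaled CPM and the marker sum in CPM of the library total. Points are libraries, black lines are means, and triangles mark the 5 libraries whose file name gives the other genotype. Tnfrsf9, Cd27 and the marker sum separate the labelled groups, and Tnfrsf4 and Fas overlap.

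In Treg, where the Cre is driven, no member was called by genotype. edgeR called 0 of 9 in the CNS and 0 of 9 in the dLN (0% of all genes in each). At an unadjusted p under 0.05 there was 1 member in the CNS (6.78% of all genes) and 0 in the dLN (1.08%). DESeq2 and limma voom also called 0 members in both. That 1 was Tnfrsf8 in the CNS, at 1.65, 4.03 and 8.19 CPM in Ctrl and 1.61, 0.0696 and 1.69 CPM in icKO (−2.04 ± 0.73, adjusted p = 0.681), with overlap. The other CNS Treg values ran from −0.31 ± 0.21 (Fas) to 0.69 ± 0.81 (Tnfrsf14), and for the most abundant member, Tnfrsf18, the value was 0.11 ± 0.18. In dLN Treg the values ran from −0.34 ± 0.23 (Tnfrsf1a) to 0.12 ± 0.26 (Tnfrsf4). dLN Tconv gave 0 of 9 called by edgeR (0% of genes), DESeq2 and limma voom. There 0 members were at an unadjusted p under 0.05 (1.46% of all genes). Values ran from −0.25 ± 0.25 (Tnfrsf1a) to 0.21 ± 0.61 (Tnfrsf9), from 2 icKO libraries. With the third, Tnfrsf4 was at 0.88, Tnfrsf18 at 0.89 and Tnfrsf25 at −0.74, and none passed (adjusted p = 0.597, 0.458 and 0.844). In the library left out of that group Fas, Tnfrsf8 and Tnfrsf14 were at 0 counts, which allows up to 0.386 CPM each, and Tnfrsf25 was at 0.257 CPM of the total, while Tnfrsf4 and Tnfrsf18 were at 389 and 459.6 CPM.

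Whether the genotype effect itself differed was tested with interaction terms, and 0 members passed in any of them. Between Treg and Tconv of the CNS 0.178% of all genes passed. There 4 members had an unadjusted p under 0.05, as had 15% of all genes. These were Tnfrsf9 at −1.93 ± 0.72 (adjusted p = 0.216), Tnfrsf8 at −2.68 ± 0.97 (adjusted p = 0.2), Tnfrsf4 at −0.73 ± 0.35 (adjusted p = 0.329) and Cd27 as given above. DESeq2 called 1 of them, Cd27. Between CNS and dLN in Tconv 0% of genes passed, and 4 members had an unadjusted p under 0.05, as had 8.16% of all genes. Among them were Cd27 at −1.08 ± 0.33 (adjusted p = 0.344) and Tnfrsf4 at 1.11 ± 0.38 (adjusted p = 0.406). Between CNS and dLN in Treg and between cell types in the dLN 0% of genes passed in each. There 0 members had an unadjusted p under 0.05, against 3.33% and 1.55% of all genes. DESeq2 called 0 members in these 3 terms.

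Other genes of the pathway were counted in lists of 13 ligands and counter-receptors (12 tested), 20 adaptors and kinases and 14 NF-kB subunits and feedback genes, all by the same fit. They are read beside the share of all genes called in the same comparison. In Ctrl CNS Treg against Tconv (17.9% of all genes called), 4 NF-kB genes were higher and 0 lower, led by Tnfaip3, the feedback inhibitor A20 (1.39 ± 0.26, adjusted p = 0.000587), with Nfkbid (1.58 ± 0.38) and Bcl3 (0.73 ± 0.24) next by p. The median of the 14 was 0.39 against 0.02 for all genes. Of the adaptors, 2 were higher, Casp8 (0.57 ± 0.14) and Birc3 (0.47 ± 0.14). Of the ligands, 2 were lower, Tnfsf8, the ligand of the Tnfrsf8 product (−0.96 ± 0.15, adjusted p = 0.000133), and Tnfsf14, which encodes LIGHT (−0.87 ± 0.24). Of these 8 calls only that of Tnfaip3 was kept with 26 libraries (adjusted p = 0.0209), and the others had an adjusted p of 0.0606 (Nfkbid) to 0.897 (Birc3). The CNS Treg libraries compared here held 6115 to 8553 CPM of the 14 myeloid markers against 202 to 629 CPM in CNS Tconv Ctrl, and the part of this in the list genes was not tested. In the Ctrl dLN (11.5% of all genes), Tnfsf8 was again lower in Treg (−0.94 ± 0.16), as was Fasl (−1.73 ± 0.48), and 0 ligands were higher. There 2 adaptors were higher (Traf1, 0.80 ± 0.16, and Siva1, 0.78 ± 0.20) and 1 lower (Map3k14, −0.96 ± 0.27), and 2 NF-kB genes were higher (Nfkb2, 0.86 ± 0.20, and Tnip1, 0.57 ± 0.16) and 1 lower (Rela, −0.37 ± 0.10). With 26 libraries 1 of these 8 calls was kept, that of Nfkb2 (adjusted p = 0.0307).

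Between icKO Treg and Tconv cells of the CNS (12.6% of all genes called), 0 adaptors, 0 NF-kB genes and 2 ligands were called (Tnfsf14 and Fasl, both lower in Treg, −0.97 ± 0.24 and −1.33 ± 0.44). The interaction that sets this beside the Ctrl mice was called for 0 genes of the 3 lists. In the icKO dLN (9.91% of all genes) 1 ligand was higher (Tnfsf14, 0.97 ± 0.29) and 1 lower (Tnfsf8, −1.13 ± 0.17), 2 adaptors higher and 1 lower, and 0 NF-kB genes changed. With 26 libraries 0 of the 2 CNS calls and 1 of the 5 dLN calls, that of Map3k14, were kept. Between tissues, Fasl, which encodes the ligand of Fas, was higher in the CNS in all 4 comparisons (2.31 ± 0.49 in Ctrl Treg and 1.66 ± 0.45 in Ctrl Tconv, 2.64 ± 0.49 and 2.80 ± 0.56 in icKO mice). With 26 libraries the Fasl calls were kept in Treg (adjusted p = 0.0466 in Ctrl and 0.0274 in icKO) and lost in Tconv (0.279 and 0.173). Btla, a partner of the Tnfrsf14 product, was lower in the CNS in all 4 (−1.65 ± 0.30, −1.38 ± 0.28, −1.44 ± 0.30 and −1.51 ± 0.30), and these calls were kept with 26 libraries (adjusted p 0.00182 to 0.0237). In Ctrl Treg (21.8% of all genes called) 1 ligand was higher and 3 lower in the CNS, 2 adaptors higher and 2 lower, and 3 NF-kB genes higher and 1 lower, with Tnfaip3 at 1.63 ± 0.28. In Ctrl Tconv (8.9% of all genes) these counts were 1 and 3, 1 and 1, and 1 and 1. In icKO Treg (22.5%) they were 1 and 3, 2 and 3, and 3 and 2, and in icKO Tconv (14.1%) 4 and 4, 3 and 0, and 1 and 0. Over the 46 genes tested in the 3 lists, 12 were called in Ctrl Treg, 8 in Ctrl Tconv, 14 in icKO Treg and 12 in icKO Tconv. The fit of 26 libraries kept 3, 1, 3 and 3 of these calls, with Btla among them each time.

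By genotype in CNS Tconv (3.1% of all genes called), 2 ligands were higher and 1 lower, 1 adaptor was higher and 2 NF-kB genes were higher, with 0 lower in the last 2 lists. Tnfsf9, the ligand of the Tnfrsf9 product, was 29.2 ± 7.36 CPM in icKO (SD, n = 4) and 8.13 ± 4.76 CPM in Ctrl (n = 4), a log2 change of 1.85 ± 0.41 (edgeR adjusted p = 0.0182). Lta, which encodes lymphotoxin alpha, rose by 1.70 ± 0.46 (adjusted p = 0.0456) and Tnfsf8 fell by 0.59 ± 0.14 (adjusted p = 0.0239). Casp8, the death domain pathway's initiator caspase, rose by 0.47 ± 0.13 (adjusted p = 0.0457), Tnfaip3 by 1.15 ± 0.24 (adjusted p = 0.0133) and Nfkbid by 1.56 ± 0.36 (adjusted p = 0.0214). All 6 were lost with 26 libraries (adjusted p 0.338 to 0.854). The medians of the 3 lists were 0.13, 0.26 and 0.14, against 0 for all genes. The other 3 genotype comparisons called 0 genes of these lists, as they called 0 genes in all (edgeR; 915 of 13500 genes were at an unadjusted p under 0.05 in CNS Treg, 146 in dLN Treg and 197 in dLN Tconv, and DESeq2 called 7, 2 and 2 genes).

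Genes whose level followed a member most closely were ranked by Pearson's r of log2 CPM over the 25 libraries among 8457 genes, as a description, since the libraries of a group share cell type and tissue. For Tnfrsf4 these were Ctla4 (r = 0.966), Il2ra (0.962) and Ikzf4 (0.946), all known from Treg. For Tnfrsf18 they were Ccrl2 (0.967), Lsr (0.964) and Irf5 (0.956), and for Tnfrsf9 Snx18 (0.936), Lamp2 (0.905) and Tpm4 (0.905). The closest gene to Tnfrsf1a was Peli1 (0.873), to Tnfrsf8 Agfg1 (0.89), to Cd27 Ampd3 (0.909), to Tnfrsf14 Arpc1a (0.873), to Fas Ccs (0.81) and to Tnfrsf25 Ccdc124 (0.796). Among the members, the neighbours Tnfrsf4 and Tnfrsf18 had r = 0.913 over the 25 libraries and 0.702 after each group's mean was removed. Tnfrsf4 and Tnfrsf9 had 0.898 and 0.744, and Tnfrsf9 and Tnfrsf18 0.875 and 0.412. Tnfrsf1a and Tnfrsf8 had −0.465 over the libraries and 0.73 within groups, which are opposite in sign.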

How the data were processed

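RNA of sorted cells was made into libraries with SMART-Seq v4 and Nextera, which keep no strand, per the labels' protocols. Per the submitters' processing notes, the tools were FastQC, Trimmomatic, STAR 2.5.3a and RSEM 1.2.28 with the build mm10, and the authors deposited for each library the expected count, TPM and FPKM of each gene as RSEM estimates them. The annotation used is not given in the sources used here. For the count tests, each expected count was rounded. TPM was used as deposited to compare genes, and FPKM, also deposited by the authors, was not used.

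Counts were tested with edgeR 4.0.16 (R 4.3.3) by quasi-likelihood in 1 model of 8 group means over 25 libraries, with TMM scaling and filterByExpr, which left 13500 genes. P-values were adjusted by Benjamini-Hochberg over these, and values after ± in a log2 change are standard errors. Of 26 libraries, 1 was left out because an earlier report on the series said that it stands apart from all others. Its best rank correlation with another library was 0.6998, against 0.9445 or more for the rest. The fit of all 26 (13054 genes) is given beside each member call that it ended, and as a count for the lists. The common dispersion was 0.142 without it and 0.364 with it. Alternatives used DESeq2 1.42.0, limma 3.58.1 (voom with quality weights, and limma-trend on log2(TPM + 1)), other filters, a replicate block, a fit of the compared groups alone and fits with libraries left out. The steps were tested on simulated data. No 2 libraries were alike enough to be 1 library deposited again (largest correlation of log2 counts 0.9884).

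The members and lists were chosen with earlier results of these data known. Named genes are the 9 members in every comparison, Tnfrsf1b as the targeted gene, up to 3 called genes with the smallest p per list and comparison, and the 3 genes most alike each member (genes with a mean of at least 10 CPM, prior count 2), of which all 3 are printed for Tnfrsf4, Tnfrsf18 and Tnfrsf9 and 1 for the others. The labels number the libraries as mice, and nothing else states separate animals, so p-values measure the spread between these libraries. Sums of B cell (up to 127.1 CPM), glia and neuron (148.5 to 337 CPM) and endothelium and fibroblast markers (67.28 to 178.3 CPM) were also computed. One marker of naive T cells is not reported here and was left out of the sum of that list.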

Additional observations from a re-analysis of the deposited data

Results flagged for a closer look

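In 4 cases a member's change between tissues differed between Treg and Tconv cells by the interaction test itself (edgeR). In Ctrl mice 1 of 9 passed, where 3.67% of all genes did, and in icKO mice 3 of 9, against 8.28%. With 26 libraries these were 0 (0.0919%) and 2 (2.04%). The case in Ctrl mice was Tnfrsf1a, with a log2 difference of 1.491 (adjusted p = 0.00822). It rose in CNS Treg by 0.99 and was at −0.50 in CNS Tconv. In icKO mice Tnfrsf1a differed by 1.643 (adjusted p = 0.00319), Cd27 by 1.901 (adjusted p = 0.00115) and Tnfrsf4 by −1.749 (adjusted p = 0.00849). Of these, only the Cd27 call was kept under all 22 alternatives. The Tnfrsf1a call in icKO mice was kept under 21 of 22, that in Ctrl mice under 22 of 23, and that of Tnfrsf4 under 20 of 22. The myeloid marker sum (5743 to 8553 CPM in CNS Treg) and the naive marker sum (2777 to 3862 CPM in CNS Tconv icKO) moved with these groups, and their part was not tested. In 18 combinations of a member and a group of 4 libraries, 0 had a library far from the others, where chance alone gives about 1 in 20.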

How the results depend on the processing

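Among called members, 0 changed direction under any alternative. Tnfrsf4 and Tnfrsf18 kept all calls of Treg against Tconv, Tnfrsf1a its tissue calls in Treg of both genotypes, and Cd27 and Tnfrsf8 theirs in icKO Tconv and icKO Treg. Of 2292 alternative values of members that did not pass, 164 changed sign without passing and 27 passed.

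The count of members called moved by over 1.5 times as follows, and the cause was not tested. With all 26 libraries it went from 4 to 2 (icKO Treg tissue comparison), 3 to 1 (Ctrl Treg tissue), 2 to 1 (Ctrl Tconv tissue), 5 to 1 (icKO Tconv tissue), 5 to 3 (Treg against Tconv in the dLN, in Ctrl and again in icKO mice), 3 to 0 (genotype in CNS Tconv) and 1 to 0 (tissue interaction in Ctrl). With the compared groups alone it was 1 for Ctrl Tconv tissue and 0 for genotype in CNS Tconv. Without the 5 libraries whose file names disagree it was 1 for genotype in CNS Tconv, 2 for the Ctrl tissue interaction (Cd27 passing at 0.87, adjusted p = 0.0443) and 3 for icKO Tconv tissue. DESeq2 gave 4 for Ctrl Tconv tissue, with Tnfrsf4 and Tnfrsf14 gained, and 1 for the genotype interaction in the CNS (0 by edgeR). With limma-trend on TPM the count was 5 for the icKO tissue interaction (3 by edgeR), with Tnfrsf8 and Tnfrsf18 gained. With 1 library left out in turn, the count was 1 to 3 for Ctrl Tconv tissue, 1 to 4 for genotype in CNS Tconv, 3 to 5 for icKO Tconv tissue, 2 to 4 for Treg against Tconv in the icKO dLN, and 0 to 1 for the genotype interaction in the CNS, where Tnfrsf9 passed without CNS Tconv Ctrl replicate 4 (−2.69, adjusted p = 0.041). Where leaving out libraries left an arm with 1 library, as in CNS Tconv icKO without the 5, that library was assumed to vary like the other groups. Outside the fit of 26 libraries, the share of all genes called is not printed for each setting. The member counts of those settings are thus not read against such a share, which also moved with the setting.

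Counts over all genes moved more. With 26 libraries they went from 2411 to 794 (Treg against Tconv, Ctrl CNS), 1556 to 235 (Ctrl dLN), 1698 to 446 (icKO CNS), 1338 to 515 (icKO dLN), 2943 to 751 (tissue, Ctrl Treg), 3035 to 672 (icKO Treg), 1202 to 143 (Ctrl Tconv), 1905 to 1206 (icKO Tconv), 419 to 12 (genotype, CNS Tconv), 24 to 0 (genotype interaction in the CNS), 495 to 12 and 1118 to 266 (tissue interactions, Ctrl and icKO). Over all other alternatives these 12 counts spanned, in the same order, 1009 to 2888, 891 to 3686, 583 to 2194, 403 to 3540, 1665 to 4037, 2011 to 4059, 285 to 2473, 648 to 3555, 102 to 892, 0 to 428, 252 to 1129 and 391 to 1815. The genotype comparisons with 0 calls reached at most 15 genes in CNS Treg and 2 in dLN Treg and in dLN Tconv. With the 26th library the median log2 change of all genes shifted from 0 to −0.36 for genotype in dLN Tconv, to 0.22 for icKO Tconv tissue and to 0.30 for icKO dLN Treg against Tconv.

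Whether equal replicate numbers mark paired libraries is not known, and correlations in groups this small cannot settle it. Deviations of same-numbered libraries correlated at −0.145 to 0.113, and in no comparison was every pair over 0.1. With the replicate number as a block, the call of Tnfrsf4 by genotype in CNS Tconv was lost (0.86, adjusted p = 0.0521), as was that of Tnfrsf8 in the icKO dLN (2.67, adjusted p = 0.0621), and the count of genes called in CNS Tconv went from 419 to 348. Depth limits Tnfrsf8 and Tnfrsf14, most of whose libraries lay under 5 CPM.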
